A study of Mus musculus with 26 samples.

Results

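The transcripts described here fell within 4 h in control mouse embryonic stem cells and then stayed level to 8 h, and their change over the 8 h was close to the control's after knockdown of Mettl14 or of Mettl3. They are 38 of 22180 genes, selected on measured values. Each gene was read by its brightest probe set with 1 gene symbol, on the mean log2 signal of each group. The scramble control had to hold a level of 8 or more at 0 h, to be lower by 0.8 or more at 4 h, and to lie within 0.3 of its 4 h level at 8 h. The change from 0 h to 8 h in each knockdown had to lie within 0.35 of the change in scramble. Left out were histone genes named H1f, H2ac, H2bc, H3c or H4c, small nucleolar RNA genes named Snora or Snord, and numbered Zfp genes. These values chose the members, so scramble levels and changes of the time course are given as a description, with no test. The knockdown arrays at 4 h and a repeat set of arrays at 0 h were not read by the rule.

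The cells were of the J1 line of mouse embryonic stem cells, kept in serum with leukaemia inhibitory factor above irradiated embryonic fibroblasts, and their polyadenylated RNA was read on arrays of the Affymetrix Mouse Gene 2.0 ST type. The time course held 18 arrays in 9 groups of 2: scramble control (labelled wild type) and knockdowns of Mettl14 and of Mettl3, with arrays of each at 0 h, 4 h and 8 h. The repeat set held 8 arrays at 0 h in 4 groups of 2: each knockdown and a scramble control of its own. The series addresses how RNA methylation relates to the stability of transcripts in these cells. The labels name both lentiviral short hairpin RNA and transfected small interfering RNA as the means of knockdown, without saying which arrays had which, and they do not name an agent added for the 4 h and 8 h incubations. Replicate 2 of each repeat-set scramble control carries a description of 4 hours, against a title, source and time field of 0 h, and was used as 0 h. The arrays are labelled as biological replicates, and nothing places them in separate experiments, so p-values measure only the spread between these samples.

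Replicate arrays correlated at r = 0.987 to 0.993 across probe sets, and the 2 arrays per group limit the precision. Mettl14 in its knockdown stood at 30.9% of scramble at 0 h, 17.9% at 4 h and 15.9% at 8 h. Mettl3 shares its only probe set with Tox4, and this probe set stood at 26.9% of scramble at 0 h and 15.9% at 4 h in the Mettl3 knockdown. Of 8 stem cell markers, 7 had a scramble level of 8 or more at 0 h (Dppa5a was at 5.73), and of 12 markers of feeder fibroblasts 2 did (Fn1 and Mmp2). The mean log2 signal of the stem cell markers in scramble was 10.78 to 10.81 at 0 h, 10.42 to 10.44 at 4 h and 10.17 to 10.22 at 8 h, and that of the feeder markers was 6.87 to 6.94, 7.08 to 7.15 and 7.12 to 7.25. The feeder markers at 0 h ran from 4.07 (Lum) to 12.33 (Fn1), with Postn and Dcn at 4.86 and 4.92 and Col1a1, Pdgfrb and Thy1 at 7.31, 7.31 and 7.18. In such bulk samples, fewer cells of a type and less RNA per cell cannot be told apart. The part of either marker list in the changes below was not tested.

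Mettl3 and Mettl14 form the core of the enzyme complex that places N6-methyladenosine on messenger RNA, a mark known to bear on how fast a transcript is degraded. A steady transcript level is the balance of synthesis and decay, and transcripts of feedback inhibitors and immediate early regulators are known for rapid turnover. MicroRNAs are cut from hairpins within longer primary transcripts, which are short-lived, whereas mature microRNAs are small, carry no poly(A) tail and are usually long-lived. Small nucleolar RNA host genes (Snhg) carry small nucleolar RNAs in their introns, and their spliced transcripts are often degraded during translation.

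Of the members, 10 were microRNA genes, the class with the largest falls. RefSeq (GRCm38.p6) held sequences for 6 of these: Mir18, Mir1898, Mir341, Mir382, Mir674 and Mir5099. The mature products are shown because the array names only the gene, and the seed (bases 2 to 8), which selects targets, is in capitals.
miR-18a-5p: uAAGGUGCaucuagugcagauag
miR-18a-3p: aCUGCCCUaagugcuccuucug
miR-1898: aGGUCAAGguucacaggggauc
miR-341-5p: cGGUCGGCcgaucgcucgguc
miR-341-3p: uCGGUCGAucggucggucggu
miR-382-5p: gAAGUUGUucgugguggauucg
miR-382-3p: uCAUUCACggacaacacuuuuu
miR-674-5p: gCACUGAGaugggaguggugua
miR-674-3p: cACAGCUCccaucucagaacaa
The 9 mature sequences carried 9 different seeds, so no pair of them shared one. For Mir5099, whose signal fell most, the table held the hairpin of 74 bases at chr12:36816205-36816278 on the plus strand of GRCm38.p6.
Mir5099 hairpin: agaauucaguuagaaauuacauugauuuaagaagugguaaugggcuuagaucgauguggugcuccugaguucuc
The remaining microRNA genes were Mir669h, Mir467c, Mir466h and Mir1949. Which of the primary transcript, the hairpin or the mature product the probe sets read was not tested.

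MicroRNA and long non-coding genes made up most of the members. Of the 7674 genes with a scramble level of 8 or more at 0 h, after the same names were left out, 63 (0.82%) were microRNA genes, 99 (1.29%) were long non-coding and 7401 (96.4%) were protein coding. Among the 38 members the numbers were 10 (26.3%), 10 (26.3%) and 17 (44.7%), and the last member was Trav12-2, a T cell receptor variable segment. Of the 309 genes that fell by 0.8 or more, 34 (11.0%) were microRNA genes and 24 (7.77%) long non-coding. A further 99 genes met every condition but were lower again at 8 h by over 0.3. Of these, 7 were microRNA genes and 5 long non-coding, and 84 (84.8%) were protein coding. All 4 of the Snhg-numbered genes that fell were members (Snhg4, Snhg5, Snhg7 and Snhg17), of 12 measured at a level of 8 or more. No gene met the other conditions and rose again by over 0.3.

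**Figure D1:**
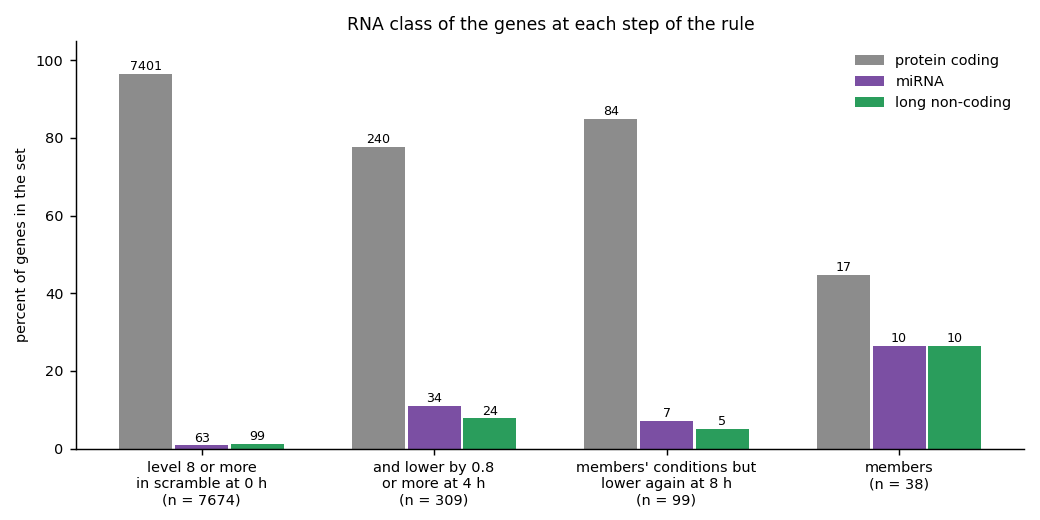
The bars give the percent of genes of each RNA class (y axis) at steps of the rule (x axis, with the number of genes in each set), and the number above a bar counts the genes. Long non-coding and microRNA genes were 99 and 63 of 7674 genes at the level minimum and 10 each of the 38 members.

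The microRNA genes fell to a median of 26.9% of their 0 h signal at 4 h in scramble, with a range of 2.08% to 49.9%. Mir5099 read 13.95 and 13.99 on the log2 scale at 0 h, 8.38 and 8.40 at 4 h and 8.10 and 8.25 at 8 h. Its 0 h arrays thus lay far above all later ones, and close to the highest signal of any probe set, which was 14.1 to 14.3 per array. Mir1898 read 7.91 and 8.09 at 0 h, 4.68 and 4.35 at 4 h and 4.58 and 4.55 at 8 h. It began near the level minimum and had the lowest 8 h level of any member (4.56). Signals below 6.00, the lowest mean of the tested genes, were taken as a bound, so the fall of Mir1898 at 4 h is given as at least 2.00. Its plateau from 4 h to 8 h lies wholly below that bound and is not read. With Mir1898 at that bound, the median of the microRNA genes is 27.2%. Mir18 belongs to the miR-17-92 cluster, known for promoting proliferation, and read 8.87 and 8.91, then 5.91 and 6.24, then 5.96 and 5.85.

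Of the microRNA genes of the imprinted Dlk1-Dio3 region, Mir382 read 8.38 and 8.50 at 0 h, 6.23 and 6.43 at 4 h and 6.21 and 6.41 at 8 h. Mir341, which lies within the long non-coding gene Rian, fell by 1.40 from 9.33. Both kept their 0 h arrays apart from the later ones. Within Sfmbt2, a Polycomb-related gene that hosts a large microRNA cluster, lay Mir669h, Mir467c and Mir466h. Mir669h read 8.78 and 8.88, then 6.61 and 6.99, then 6.77 and 6.74. Mir467c read 9.86 and 9.69, then 8.10 and 7.92, then 7.87 and 7.58. Mir466h fell less, with a change of -1.10 from 9.83. These families hold near-identical copies, so signal of single copies is uncertain: of the genes with names starting Mir466, Mir467 and Mir669, 4 of 7, 2 of 4 and 7 of 11 had a level of 8 or more, all of those fell by 0.8 or more, and 1 of each family was a member.

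Some genes that overlap members in the annotation changed little in scramble, and others fell. Sfmbt2 changed by -0.01 from 0 h to 4 h, against -2.03 for Mir669h, -1.76 for Mir467c and -1.10 for Mir466h. Zfr, which contains Mir1898, changed by 0.08 where Mir1898 was lower by at least 2.00. Nampt, the NAD salvage enzyme whose gene overlaps the long non-coding Gdap10, changed by 0.12 against -1.67, and Ankrd17, which overlaps a predicted long non-coding member, by -0.11 against -0.98. Rian changed by -0.32 against -1.40 for Mir341. Chd2, the chromatin remodeller whose level the neighbouring Chaserr RNA is known to limit, changed by -0.89 at 4 h where Chaserr changed by -1.09, and Chd2 changed by a further -0.70 from 4 h to 8 h where Chaserr changed by -0.24. Snhg4 and Mir1949, which lies within it, were both members, and changed by -1.07 and -1.58, while Snora74a within Snhg4 changed by -0.20. Mir5124a, within Gcnt2, changed by -0.60 from 6.42 against -0.88, and a predicted gene that overlaps C87436 by -0.38 from 6.23 against -0.80. Both overlapping genes were below 6.00 at 4 h, so the size of their falls is not read.

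**Figure D2:**
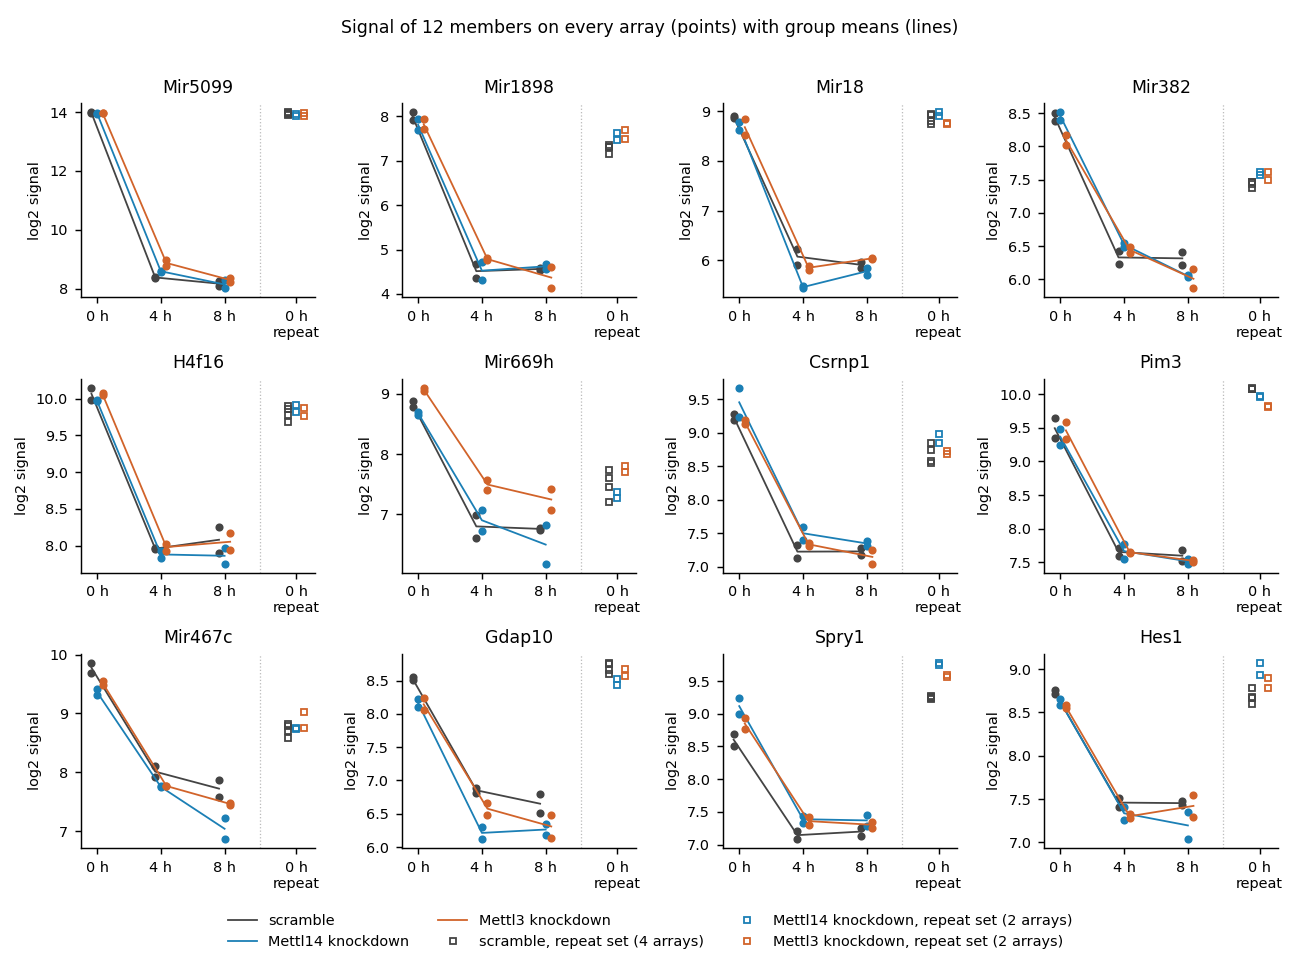
Each panel plots the log2 signal of 1 member (y axis, its own scale) on every array by time (x axis), with filled points for time course arrays, lines through group means and open squares for the repeat set at 0 h. In all 12 panels the 0 h arrays of each treatment in the time course lie above all of its 4 h and 8 h arrays, and the open squares lie above the scramble 8 h mean.

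The 10 long non-coding members kept more of their signal, a median of 49.2% at 4 h and a range of 30.8% to 56.4%. Gdap10 read 8.51 and 8.55 at 0 h, 6.89 and 6.82 at 4 h and 6.80 and 6.51 at 8 h, and was the named long non-coding member with the largest fall. Snhg17 was among the brightest and read 11.03 and 11.12, then 10.13 and 10.18, then 10.41 and 10.43, so that its 8 h arrays lay above its 4 h arrays. Snhg5, Snhg4 and Snhg7 changed by -1.12, -1.07 and -0.83 from levels of 10.21, 10.68 and 10.02. Dancr, a host of small nucleolar RNA known for holding back differentiation, fell by 0.89 from 8.64. Platr4, 1 of the transcripts named for their association with pluripotency, fell by 0.86 from 9.40.

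Regulators of signalling and transcription were among the coding members with the largest falls. Csrnp1, a nuclear activator of transcription, read 9.19 and 9.28 at 0 h, 7.13 and 7.32 at 4 h and 7.29 and 7.17 at 8 h. Its paralogue Csrnp2 fell by 1.38 from 9.69. Pim3, a serine/threonine kinase that promotes survival and is induced by Stat3 signalling, read 9.35 and 9.64, then 7.59 and 7.71, then 7.68 and 7.51. For both Csrnp1 and Pim3 the 4 h and 8 h arrays overlapped while the 0 h arrays stood apart. Spry1, an inhibitor of receptor tyrosine kinase signalling, read 8.51 and 8.70, then 7.20 and 7.08, then 7.26 and 7.14. Hes1, the Notch target and repressor whose own messenger RNA is known to oscillate, read 8.71 and 8.76, then 7.51 and 7.41, then 7.43 and 7.48. Bambi, a decoy receptor for TGF-beta and BMP ligands, fell by 0.87 from 9.01. Here too the later arrays overlapped for Spry1 and Hes1.

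The other coding members had varied roles. H4f16, a histone H4 gene whose symbol the rule's names do not cover, read 9.98 and 10.15, then 7.95 and 7.97, then 7.90 and 8.26. Histone H4 genes are near-identical, so the signal of this copy is uncertain. Kbtbd2 and Kbtbd6, adaptors of cullin ubiquitin ligases, changed by -1.32 from 8.64 and by -1.20 from 8.31. Plk4, the kinase that starts centriole duplication, fell by 1.17 from 10.14. The mitochondrial ubiquitin ligase Mul1, the Golgi SNARE Bet1l and the branching glycosyltransferase Gcnt2 changed by -0.84, -0.91 and -0.88. Fam43a and the kinase gene Pdik1l changed by -1.32 and -1.06, and C87436, a gene without a settled role, changed least (-0.80). Over all 38 members the scramble level at 8 h ran from 4.56 to 10.42, and 14 members were still at 8 or more.

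Genes lay close to each threshold on both sides. At the level minimum Mir1898 stood inside at 8.00 and Tmem185b outside at 7.98. For the fall at 4 h, C87436 and Snhg7 stood inside at -0.80 and -0.83 and the ribosomal protein gene Rpl6 just outside, at -0.80 to 2 decimals. For the plateau, Mir674 and Mir467c stood inside at -0.30 and -0.29 and Zic5 and Klf3 outside at -0.31 and -0.32. Spry1 lay inside the bound on the Mettl14 knockdown at -0.34 and a predicted gene outside at -0.39, with Mir677 outside on the other side at 0.39. Mir18 lay inside the bound on the Mettl3 knockdown at 0.34 and Mir1929 outside at 0.41, with Nfkbia outside on the other side at -0.40. A single array decided many of these places: leaving out each of the 18 time course arrays in turn gave 32 to 57 members, 57 without scramble 8 h replicate 2, and 11 of the 38 were members every time. Quantile normalization again gave 38 members of which 24 were the same, and the long-lived scaling gave 54, also with 24 of the 38. A further 5 members had several probe sets, which differed. The other probe set of Mul1 lay at 5.02 and changed by 0.03 at 4 h, that of H4f16 lay at 6.45 and changed by -0.36, and the others of Snhg17 lay at 9.49 and 8.53 and changed by -0.09 and -0.36. Those of Gcnt2 lay at 5.99 and 5.97 and changed by -0.29 and -0.20. Trav12-2 had probe sets that changed by 0.09 to -1.05.

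In both knockdowns the members were also low at 4 h. All 38 were called lower at 4 h than at 0 h in the Mettl14 knockdown and all 38 in the Mettl3 knockdown (limma, adjusted p under 0.05), where 13.1% of all 14787 tested genes were called lower in each. The rule read the 0 h and 8 h arrays of each knockdown, and these counts share the 0 h arrays with it, so nothing is read from them. The median change was -1.24 in the Mettl14 and -1.23 in the Mettl3 knockdown, against 0.12 and 0.10 over all tested genes, and -1.19 against 0.13 in scramble. Mir5099 read 13.94 and 13.98 at 0 h and 8.57 and 8.62 at 4 h in the Mettl14 knockdown, and 13.98 and 13.96 and then 8.98 and 8.77 in the Mettl3 knockdown. Its 4 h arrays in both knockdowns lay above the scramble 4 h arrays. The smallest change was that of Mul1, -0.48 ± 0.13 (SE) in the Mettl14 and -0.52 ± 0.13 in the Mettl3 knockdown. Averaging the probe sets of a gene ended the call of Mul1 and Gcnt2 in both knockdowns. Mul1 also lost it without Mettl14 knockdown 0 h replicate 1 or 4 h replicate 2 and without Mettl3 knockdown 0 h replicate 1, and Mir466h without Mettl3 knockdown 0 h replicate 2.

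The 4 h change in the Mettl14 knockdown lay within 0.35 of that in scramble for 36 of 38 members, and in the Mettl3 knockdown for 32. The rule set this bound for 8 h alone, where 18361 (Mettl14) and 17959 (Mettl3) of all 22180 genes met it. Of the arrays compared, the rule left only the knockdown arrays at 4 h unread, so nothing is read from these counts. The difference from scramble ran from -0.43 to 0.36 in the Mettl14 and from -0.60 to 0.50 in the Mettl3 knockdown, with signals below 6.00 taken as measured. Mir18 at 4 h read below 6.00 in both knockdowns, so its falls there are at least 2.70 (Mettl14) and at least 2.68 (Mettl3), and it changed by -2.81 in scramble, to 6.08. For Mir382 the changes were -1.94 in the Mettl14 knockdown, -1.65 in the Mettl3 knockdown and -2.11 in scramble. Scaling moves all such changes: giving the long-lived transcripts an equal median on every array shifted the median of all tested genes by -0.19 in scramble, -0.24 in the Mettl14 and -0.22 in the Mettl3 knockdown.

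**Figure D3:**
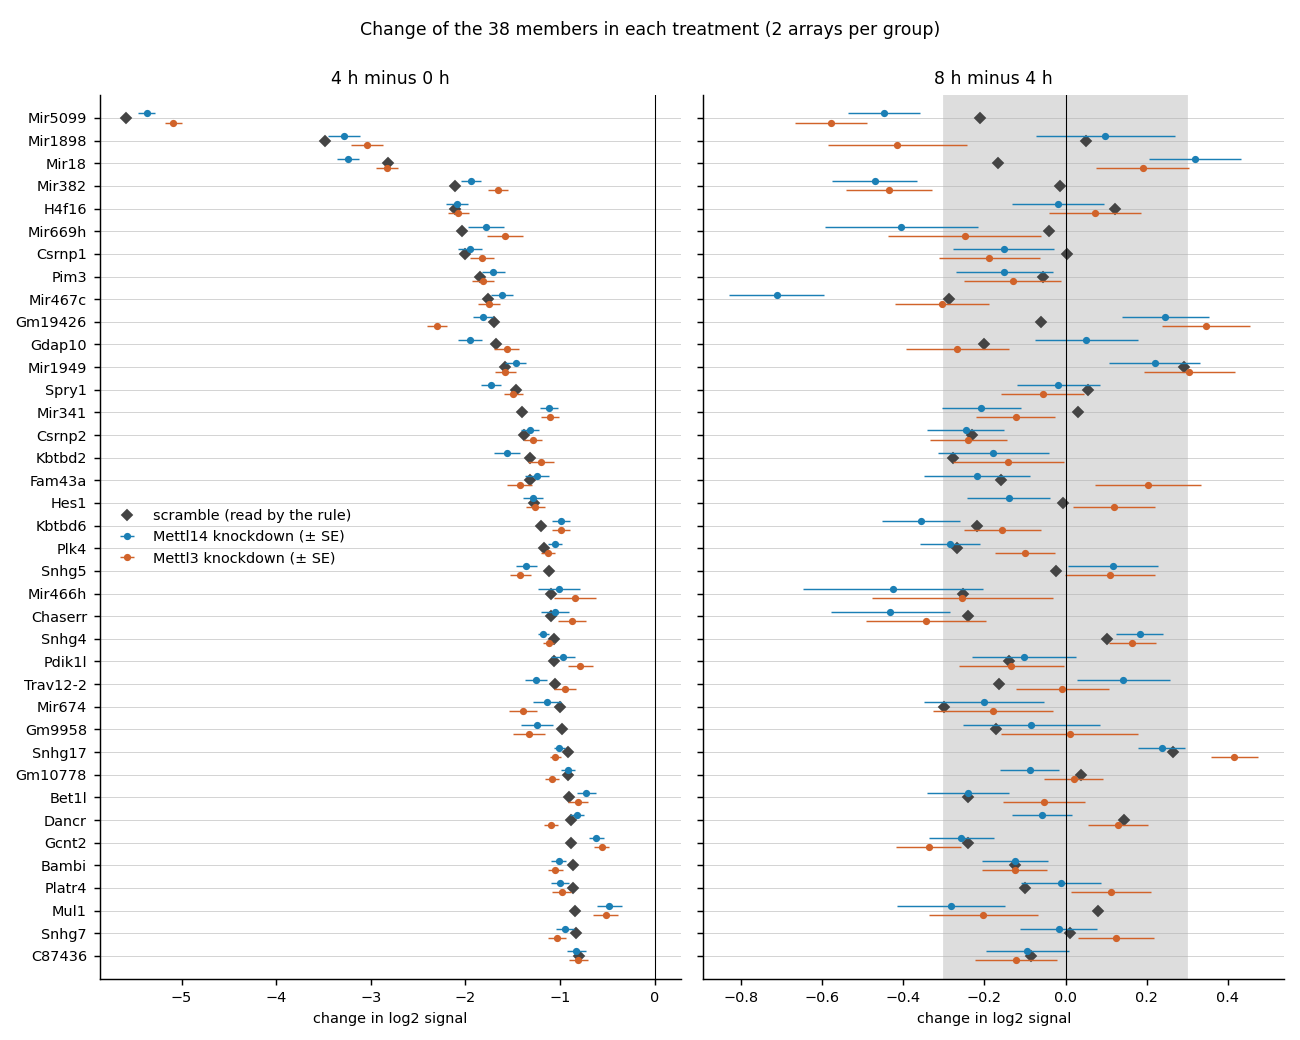
The left panel plots the change in log2 signal from 0 h to 4 h (x axis) and the right panel that from 4 h to 8 h for each of the 38 members (y axis, ordered by the scramble fall). Diamonds are scramble, circles are the knockdowns with limma's standard error (2 arrays per group), and the shaded band marks changes within 0.3 of 0. The rule holds the diamonds of the right panel within this band. The 4 h changes of all 3 treatments lie close together for most members. Mir467c and Mir5099 lie left of the band after 4 h in a knockdown, and at -0.29 and -0.21 in scramble. Signals of Mir1898 and Mir18 below 6.00 are plotted as measured.

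From 4 h to 8 h most members stayed near their 4 h level in the knockdowns, and a few microRNA genes were lower again. The change lay within 0.3 of 0 in 30 of 38 members in the Mettl14 knockdown (7 were lower by more, 1 was higher). In the Mettl3 knockdown it did so in 29 (6 lower, 3 higher). In scramble 18626 of all 22180 genes, dim ones included, lay within that bound, so staying within it was common there. The share was not counted in the knockdowns, so nothing is read from the 30 and 29 members. By limma, 6 members changed in the Mettl14 knockdown, 5 lower and 1 higher, where 7.99% of tested genes changed (6.8% lower and 1.19% higher). In the Mettl3 knockdown 4 members changed, 3 lower and 1 higher, where 7.84% did (6.44% lower and 1.4% higher). The rule holds the 8 h arrays of the knockdowns near those of scramble, so these counts are not independent of it. The median change was -0.13 and -0.12, against 0.01 over all tested genes in each. Of the 98 tested genes that met the other conditions but were lower again in scramble, 73 in the Mettl14 and 59 in the Mettl3 knockdown were called lower from 4 h to 8 h. The scaling on long-lived transcripts shifted the median of all genes by -0.11 and -0.12 here.

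Mir467c read 7.75 and 7.76 at 4 h and 6.87 and 7.22 at 8 h in the Mettl14 knockdown, a change of -0.71 ± 0.12 (adjusted p = 0.00251). In the Mettl3 knockdown it read 7.76 and 7.77 and then 7.44 and 7.49, with no overlap, and did not pass. Mir5099 read 8.57 and 8.62, then 8.01 and 8.28 in the Mettl14 knockdown (-0.45 ± 0.09, adjusted p = 0.00911), and 8.98 and 8.77, then 8.35 and 8.25 in the Mettl3 knockdown (-0.58 ± 0.09, adjusted p = 0.0019). In both knockdowns all 4 h arrays of Mir5099 lay above the 8 h arrays. Mir382 went from 6.55 and 6.49 to 6.07 and 6.03 in the Mettl14 knockdown and from 6.40 and 6.49 to 6.15 and 5.86 in the Mettl3 knockdown, changes of -0.47 ± 0.11 and -0.44 ± 0.11 that both passed (adjusted p = 0.0165 and 0.0251). In scramble the rule holds this change within 0.3 of 0. It was -0.29 there for Mir467c, -0.21 for Mir5099 and -0.01 for Mir382.

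Snhg17 was called higher at 8 h than at 4 h in both knockdowns, and the call in the Mettl14 knockdown depended on the setting. It read 10.12 and 10.12 at 4 h and 10.32 and 10.40 at 8 h in the Mettl14 knockdown (0.24 ± 0.06, adjusted p = 0.0269, and up to 0.266 under the alternatives: it was lost with no filter, with averaged probe sets, with the long-lived scaling and without any 1 of the 4 arrays compared). In the Mettl3 knockdown it read 10.04 and 9.97 and then 10.49 and 10.35 (0.42 ± 0.06, adjusted p = 0.000925). Every 8 h array lay above every 4 h array of the same treatment, in scramble as well. The other calls were Kbtbd6 and Plk4, which changed by -0.36 and -0.29 in the Mettl14 knockdown, and Gcnt2, which changed by -0.34 in the Mettl3 knockdown. Kbtbd6 read 7.26 and 7.21, then 6.82 and 6.93, and Gcnt2 read 8.51 and 8.60, then 8.28 and 8.16, both without overlap. These 3 calls were lost under several alternatives, at an adjusted p of up to 0.235 for Kbtbd6, 0.254 for Plk4 and 0.857 for Gcnt2. Under every alternative tried, Mir467c kept its call in the Mettl14 knockdown and Mir5099 and Snhg17 kept theirs in the Mettl3 knockdown. Mir5099 lost its call in the Mettl14 knockdown without 8 h replicate 1 or 4 h replicate 2 of that knockdown (adjusted p up to 0.102), and the highest adjusted p of Mir382 was 0.106 in the Mettl14 and 0.199 in the Mettl3 knockdown. The count in the Mettl14 knockdown was 2 without 4 h replicate 1, 1 without 4 h replicate 2 and 1 without 8 h replicate 1 of that knockdown. The count in the Mettl3 knockdown was 2 without 4 h replicate 1, 4 h replicate 2 or 8 h replicate 2.

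The knockdowns were also compared with each other at 4 h, on arrays that the rule did not read. The rule held the 8 h change of both knockdowns near that of scramble. The counts here are thus not independent of it, and nothing is read from them. By limma, 0 of 38 members differed at an adjusted p under 0.05, where 6.11% of tested genes did, and 5 members had an unadjusted p under 0.05. Mir669h had the largest difference, reading 6.73 and 7.07 in the Mettl14 and 7.58 and 7.41 in the Mettl3 knockdown, without overlap (-0.59 ± 0.19, adjusted p = 0.0896). The others were Gdap10 (-0.36 ± 0.13), Kbtbd6 (0.32 ± 0.10), Mir5099 (-0.28 ± 0.09) and Mir18, which read below 6.00 in both. Other settings of the fit gave 0 to 4 members, 4 with array weights and 4 in a fit over all 26 arrays. With 1 array left out, counts ran from 0 to 3: 3 without Mettl14 knockdown 8 h replicate 1 or replicate 2, and 1 each without scramble 4 h replicate 1 or 2 and Mettl3 knockdown 0 h replicate 1 or 2.

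In the repeat set, which the rule did not read, the members stood high in scramble cells at 0 h. The mean of the 4 repeat-set scramble arrays lay above the time course 8 h mean in 38 of 38 members, and nearer to the 0 h than to the 8 h mean in 28. It was lower than the time course 0 h mean in 30 members, with a median difference of -0.27, against -0.15 over all tested genes. The rule chose the members on both time course means, so these counts are partly set by it and nothing is read from them. The array medians of the time course lay at 6.48 to 6.50 at 0 h and at 6.28 to 6.39 at 4 h and 8 h, and those of the repeat set at 6.29 to 6.32. Mir5099 stood at 13.94 ± 0.04 (SD, n = 4) against 13.97 in the time course, and Mir18 at 8.85 ± 0.10 against 8.89. Mir382 stood at 7.43 ± 0.04 against 8.44, Mir669h at 7.50 ± 0.23 against 8.83 and Mir467c at 8.72 ± 0.10 against 9.78, and 6 members in all were lower by over 0.8. Pim3 and Spry1 stood higher than in the time course, at 10.09 ± 0.01 and 9.25 ± 0.02 against 9.50 and 8.60. Whether all arrays were normalised together is not stated in the labels, so levels between the sets carry that limit.

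**Figure D4:**
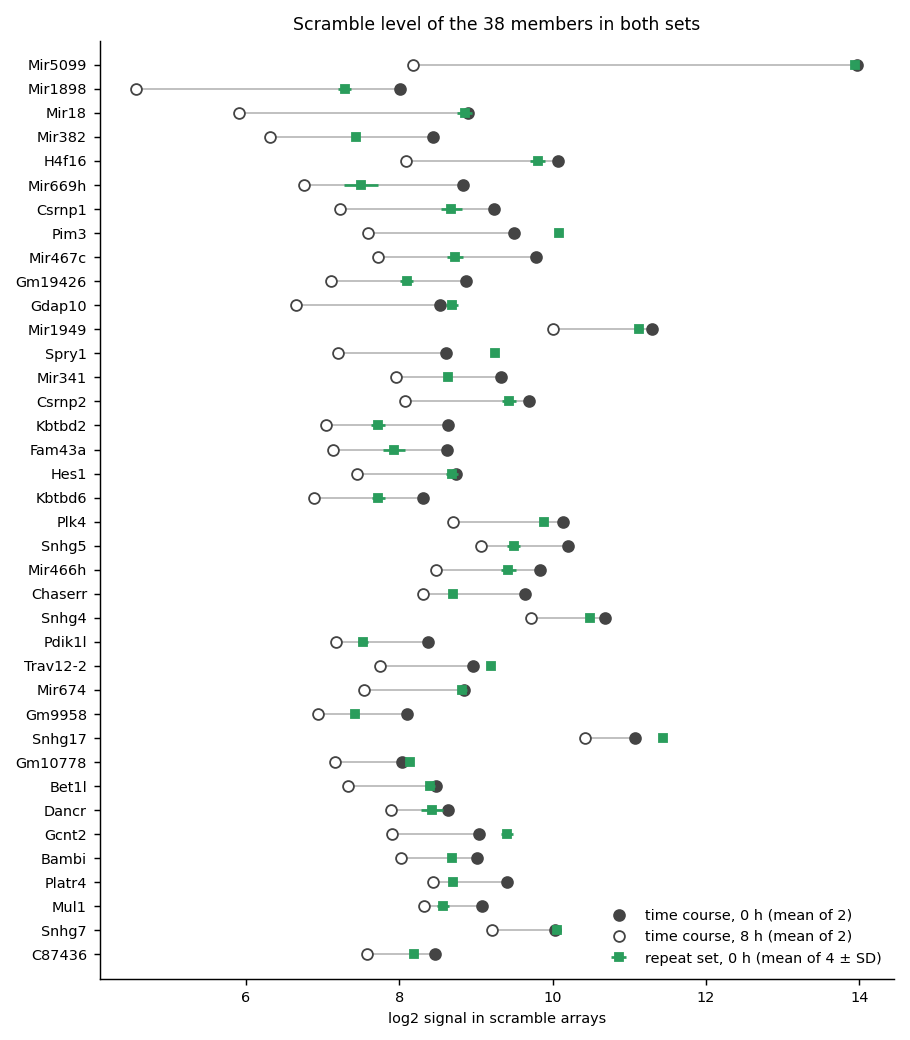
The log2 signal in scramble arrays (x axis) is plotted for the 38 members (y axis), as the time course mean at 0 h (filled circle) and 8 h (open circle), joined by a line, and the mean ± SD of the 4 repeat-set arrays at 0 h (square). Every square lies to the right of the open circle, and 30 of 38 lie to the left of the filled circle; Spry1, Pim3, Gcnt2, Snhg17 and Trav12-2 are among the 8 to its right.

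The level of some members at 0 h differed after knockdown in the repeat set. In the Mettl14 knockdown 6 members were higher, where 19.4% of tested genes were, and 8 were lower, where 16.9% were. In the Mettl3 knockdown 3 were higher and 9 lower, where 17.9% and 17.4% of tested genes were. In all, 14 and 12 of the 38 members were called, shares near the background of 36.2% and 35.3%. Of these, 9 were called the same way in both knockdowns (64.3% of the Mettl14 and 75.0% of the Mettl3 calls), as were 3515 of all tested genes (65.6% and 67.4%). The 3 higher in both were Spry1, Kbtbd2 and Bambi, and the 6 lower in both were Platr4, Trav12-2, Fam43a, Kbtbd6, Snhg7 and Pim3.

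Among the inhibitors of signalling, Spry1 rose in both. It read 9.27 and 9.26 in scramble and 9.78 and 9.74 in the Mettl14 knockdown (0.50 ± 0.04, adjusted p = 0.000187). In the other pair it read 9.22 and 9.24 in scramble and 9.59 and 9.56 in the Mettl3 knockdown (0.35 ± 0.04, adjusted p = 0.000915). Bambi read 8.69 and 8.68, then 9.04 and 8.98 (0.33 ± 0.04, adjusted p = 0.00168), and in the Mettl3 pair 8.66 and 8.69, then 8.81 and 8.85 (0.15 ± 0.04, adjusted p = 0.0372). All knockdown arrays lay above the scramble arrays for both genes. Csrnp1 passed in the Mettl14 knockdown, with 8.58 and 8.55 in scramble and 8.98 and 8.84 after knockdown (0.35 ± 0.06, adjusted p = 0.00596), and read 8.85 and 8.74 against 8.68 and 8.73 in the Mettl3 pair, where it did not pass (-0.09 ± 0.06). The Notch target Hes1 read 8.79 and 8.68 in scramble and 9.07 and 8.94 in the Mettl14 knockdown (0.27 ± 0.07, adjusted p = 0.0218), and did not pass in the Mettl3 pair. Mir1898 was the other call, 0.30 higher in the Mettl14 knockdown (adjusted p = 0.0409).

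Kbtbd2, whose product recruits the insulin pathway subunit p85 alpha for degradation, read 7.79 and 7.80 in scramble and 8.11 and 8.13 in the Mettl14 knockdown (0.33 ± 0.06, adjusted p = 0.00518). The Mettl3 pair read 7.65 and 7.63, then 8.02 and 8.18 (0.45 ± 0.06, adjusted p = 0.00139). Its relative Kbtbd6 went the other way, with differences of -0.29 and -0.31. Pim3 read 10.10 and 10.09 in scramble and 9.97 and 9.98 in the Mettl14 knockdown, a small difference of -0.12 ± 0.04 (adjusted p = 0.0478), and 10.07 and 10.08, then 9.82 and 9.82 in the Mettl3 pair (-0.26 ± 0.04, adjusted p = 0.00254).

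The largest falls were in Platr4 and Trav12-2. Platr4 read 8.76 and 8.69 in scramble and 7.91 and 7.62 in the Mettl14 knockdown (-0.96 ± 0.10, adjusted p = 0.000633), and 8.72 and 8.63, then 7.99 and 8.17 in the Mettl3 pair (-0.59 ± 0.10, adjusted p = 0.00524). Trav12-2 read 9.16 and 9.15, then 8.32 and 8.36 (-0.82 ± 0.05, adjusted p = 5.56e-05), and 9.26 and 9.20, then 8.55 and 8.49 (-0.70 ± 0.05, adjusted p = 1.00e-04). Neither gene's knockdown arrays overlapped its scramble arrays. Fam43a read 7.83 and 7.78, then 7.53 and 7.37 (-0.35 ± 0.06, adjusted p = 0.00489), and 8.07 and 8.03, then 7.72 and 7.76 (-0.31 ± 0.06, adjusted p = 0.00841).

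Mir466h read 9.57 and 9.40, then 9.22 and 9.06 in the Mettl14 pair (-0.34 ± 0.09, adjusted p = 0.0288), and 9.38 and 9.35, then 9.23 and 9.45 in the Mettl3 pair, where the groups overlapped. Dancr read 8.50 and 8.58 in scramble and 8.12 and 8.32 in the Mettl3 knockdown (-0.32 ± 0.08, adjusted p = 0.0181). Snhg7 differed by -0.19 and -0.20, and Chaserr by -0.17 in the Mettl14 knockdown. The 2 other calls in the Mettl3 knockdown were lower predicted genes. Of the 14 calls in the Mettl14 knockdown 6 held under every alternative (Spry1, Kbtbd2, Bambi, Platr4, Trav12-2 and Fam43a), and of the 12 in the Mettl3 knockdown 5 did (Spry1, Kbtbd2, Platr4, Trav12-2 and 1 predicted gene). The other calls were each lost under at least 1 alternative, at a highest adjusted p of 0.0533 (Csrnp1) to 0.426 (Pim3) in the Mettl14 and of 0.0539 (Fam43a) to 0.317 (Bambi) in the Mettl3 knockdown. The count of lower members in the Mettl14 knockdown was 5 without scramble replicate 1, 5 without scramble replicate 2 and 4 without knockdown replicate 2.

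Both marker lists moved in these comparisons. In the repeat set the mean log2 signal of the 8 stem cell markers was 10.66 to 10.69 in the scramble and 10.29 to 10.31 in the knockdown arrays of the Mettl14 pair, and 10.67 to 10.69 and 10.29 to 10.31 in the Mettl3 pair. The mean of the 12 feeder markers was 7.26 to 7.28 and 7.37 to 7.38 in the Mettl14 pair, and 7.10 to 7.11 and 7.34 to 7.36 in the Mettl3 pair. Their part in the members' levels was not tested.

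**Figure D5:**
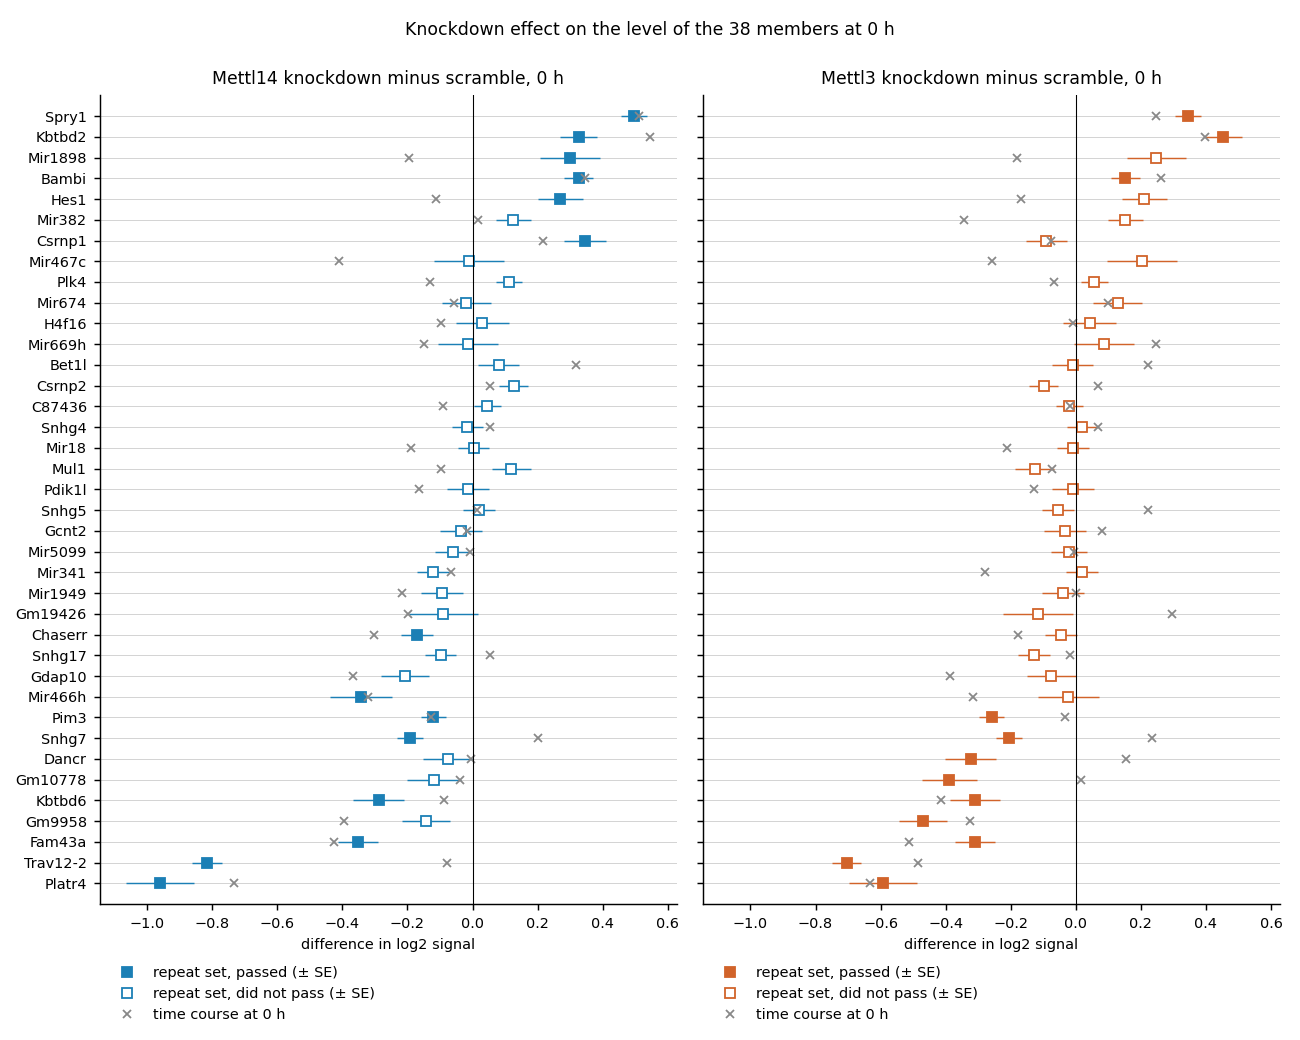
The difference in log2 signal between knockdown and scramble at 0 h (x axis) is plotted for the 38 members (y axis, ordered by the mean of both repeat-set differences), for Mettl14 at left and Mettl3 at right. Squares are the repeat set with limma's standard error, filled where the adjusted p was under 0.05 (14 and 12 members), and crosses are the time course, whose 0 h arrays the rule read; Spry1 and Kbtbd2 lie to the right and Platr4 and Fam43a to the left in all 4 comparisons.

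In the time course at 0 h, where the rule read the arrays, the same differences are given as values alone. Spry1 was higher by 0.51 in the Mettl14 and 0.25 in the Mettl3 knockdown, Kbtbd2 by 0.55 and 0.40, and Bambi by 0.35 and 0.26. Platr4 stood at -0.73 and -0.63 and Fam43a at -0.43 and -0.51. Trav12-2 stood at -0.08 and -0.49. In limma over all 26 arrays the knockdown effect differed between the sets for 2 members with Mettl14, where 16.5% of tested genes did, and for 4 with Mettl3, where 9.81% did.

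Of the genes known for short-lived transcripts, Hes1 and Pim3 were members. Of 62 listed, 60 were measured and 46 had a scramble level of 8 or more at 0 h. Of these, 30 fell by 0.8 or more at 4 h. Of the 30, 19 were lower again at 8 h by over 0.3, and 10 lay on a plateau. Those 10 include Zfp36 and Zfp36l2, which the rule leaves out by name. Of all 309 genes that fell, counted with such names left out, 77 lay on a plateau. In the Mettl14 knockdown 48 of the 60 passed as lower at 4 h and 2 as higher, and in the Mettl3 knockdown 49 and 2. Of all tested genes, 13.1% passed as lower at 4 h in each knockdown. From 4 h to 8 h 18 were lower and 0 higher in the Mettl14 knockdown, with a median of -0.21. In the Mettl3 knockdown 14 were lower and 0 higher, with a median of -0.13. Of all tested genes, 6.8% (Mettl14) and 6.44% (Mettl3) were lower, and 1.19% and 1.4% were higher. The median scramble change at 4 h was -0.81 for the list, 0.13 for all tested genes and 0.19 for 29 listed long-lived transcripts.

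Other genes on the plateau differed in the knockdowns by more than the rule allows. Ccn1, a matricellular protein, changed by -0.04 from 4 h to 8 h in scramble, but its 8 h change differed from that of scramble by -2.02 in the Mettl14 and -1.74 in the Mettl3 knockdown. Socs3, the inhibitor of LIF signalling, changed by -0.04 after 4 h and differed by 0.48 and 0.72. Junb and Rnd3 also changed little after 4 h in scramble (0.07 and 0.03) and differed by -0.51 and -0.76 in the Mettl14 knockdown.

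Of 41 listed feedback regulators of signalling, 40 were measured, 30 had a level of 8 or more, and 16 of those fell at 4 h. Spry1, Hes1 and Pim3 were members, 5 of the 16 lay on the plateau and 10 were lower again. The close relatives Spry2 and Spry4 changed by -2.23 and -1.99 at 4 h and by a further -0.65 and -0.62 from 4 h to 8 h, where Spry1 changed by -1.46 and 0.06. Dusp6, the phosphatase of ERK, changed by -2.29 and -0.70. In the repeat set 15 of the 40 were higher and 11 lower in the Mettl14 knockdown, where 19.4% and 16.9% of tested genes were. In the Mettl3 knockdown 17 were higher and 9 lower, where 17.9% and 17.4% of tested genes were. None of the 37 measured cell cycle genes, 34 measured pluripotency genes or 14 measured genes of the methylation machinery was a member. Only 38 of all 22180 genes were members, so nothing is read from empty lists of this size.

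Promoters were compared as a description, since the rule itself chose genes that fell in scramble and changed alike in the knockdowns. RefSeq's table (GRCm38.p6, 250 bases before to 50 after the annotated start) held 21 members and 11516 tested genes, and motifs were searched on both strands in every window of a gene. TATAAA was in 3 member promoters (14.3%) and 9.40% of all, and CCGGAAGT, the core bound by ETS factors, in 4 (19.0%) and 7.75%. CCAAT was in 11 (52.4%) and 41.9%, GGGCGG in 13 (61.9%) and 65.1%, and CACGTG in 2 (9.52%) and 11.3%. TGACTCA, the AP-1 motif, was in 1 (4.76%) and 4.55%, and the CArG box, which serum response factor binds, in 2 (9.52%, Bet1l and Pdik1l) and 1.63%. TGACGTCA and the motif of NRF1 were in 0 of the 21, and in 3.32% and 2.01% of all. No motif contains another. Stretches from 5 promoters show the matches in capitals, on the strand of the gene: TATAAA in Snhg5 and Snhg7, the reverse complement of CCGGAAGT in Plk4 and Mul1, and the reverse complement of TGACTCA, found in 2 places, in Csrnp1.
Snhg5, chr9:88522898-88522957, minus strand: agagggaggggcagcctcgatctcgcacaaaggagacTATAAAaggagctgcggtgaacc
Snhg7, chr2:26640245-26640304, minus strand: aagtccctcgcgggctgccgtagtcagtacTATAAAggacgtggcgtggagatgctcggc
Plk4, chr3:40799891-40799950, plus strand: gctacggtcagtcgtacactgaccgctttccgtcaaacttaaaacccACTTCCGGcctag
Mul1, chr4:138434612-138434671, plus strand: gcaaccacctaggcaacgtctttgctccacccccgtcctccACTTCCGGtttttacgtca
Csrnp1, chr9:119983024-119983133, minus strand: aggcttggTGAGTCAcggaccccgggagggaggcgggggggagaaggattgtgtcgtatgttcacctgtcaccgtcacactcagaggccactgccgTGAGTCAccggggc
Csrnp1 has 4 annotated starts, and the window of 1 of them was used. A match is a stretch of letters and does not show binding.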

How the data were processed

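The authors deposited 1 log2 signal value for each probe set and array. Per the submitters' processing notes, RMA and the oligo package were used. RMA corrects background, equalises the probe distributions of arrays and summarises probes, which can hide a change shared by all RNA. The platform annotation paired 23521 of 41345 probe sets with 1 gene symbol and 1814 with several; only the former were used. The brightest probe set (mean of 26 arrays) stood for a gene, giving 22180 genes, and the dimmest 7393 were left out of tests. Tests were two-sided and used lmFit and eBayes of limma 3.58.1 under R 4.3.3, with Benjamini-Hochberg adjustment over 14787 genes and a threshold of 0.05. The time course (18 arrays) and the repeat set (8 arrays) were fitted apart, and a fit of 26 arrays compared them. The fit was tested on simulated data. Values after ± are standard errors from limma unless said otherwise.

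The members, the gene lists, the rule for the genes given with array values and the tests were chosen with earlier results of these data known. By that rule, values on every array are given for the 10 largest falls, up to 4 calls in each direction of a comparison, and members of the lists; predicted genes are counted. Of 10 lists, 8 held none of the 38 members among 22180 genes (long-lived transcripts, pluripotency, feeder fibroblasts, decay, methylation machinery, p53 targets, chromatin regulators and cell cycle). The alternatives were no filter on dim genes, the choice of probe set, the variance model, array weights, a replicate block, 2 other scalings, a fit over all arrays and leaving out each array.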

Additional observations from a re-analysis of the deposited data

Results flagged for a closer look

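A difference between the sets picked out 6 results: the knockdown effect at 0 h in the time course minus that in the repeat set passed in limma over all 26 arrays. The time course arrays at 0 h were read by the rule. The background was 16.5% of tested genes for Mettl14 and 9.81% for Mettl3. For the Mettl14 knockdown the difference was 0.39 for Snhg7 and 0.74 for Trav12-2. For the Mettl3 knockdown it was -0.50 for Mir382, 0.41 for Gm10778, 0.44 for Snhg7 and 0.48 for Dancr. Snhg7 was thus lower after knockdown in the repeat set and stood higher in the time course, in both knockdowns. With 2 arrays per group, no group was large enough to look for single arrays far from the others.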

How the results depend on the processing

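No called change of a member changed direction. With the long-lived scaling the median 4 h change of all tested genes did. It was -0.06 in scramble, -0.13 in the Mettl14 and -0.12 in the Mettl3 knockdown, against 0.13, 0.12 and 0.10 as deposited. From 4 h to 8 h this median was -0.10 in the Mettl14 and -0.11 in the Mettl3 knockdown, against 0.01 in each as deposited. The number of members ran from 32 to 57 with 1 array left out and from 38 to 54 otherwise, 54 with arrays scaled to the median of the long-lived transcripts. That scaling kept 24 of the 38, quantile normalization again kept 24 with 14 new ones, and averaged probe sets kept 34. Members lower at 4 h in a knockdown numbered 36 to 38 throughout. Members that changed from 4 h to 8 h in the Mettl14 knockdown (6) numbered 3 with no filter on dim genes, 10 in the fit over all arrays and 1 to 8 with 1 array left out. In the Mettl3 knockdown (4) they numbered 2 with no filter, 7 with the long-lived scaling and 2 to 5 with 1 array left out. Between the knockdowns at 4 h (0), trend with robust gave 2, array weights 4, quantile normalization again 1, the fit over all arrays 4, and leaving out 1 array 0 to 3. In the repeat set, members higher in the Mettl14 knockdown (6) numbered 3 with the long-lived scaling and 4 to 6 with 1 array left out. Those lower (8) numbered 4 with no filter, 4 in the fit over all arrays and 4 to 7 with 1 array left out. In the Mettl3 knockdown those higher (3) numbered 5 with trend and robust and 2 to 4 with 1 array left out, and those lower (9) 6 to 9. Where an array is left out, its group has 1 array, assumed to vary like the others. The cause of these moves was not tested, except that fewer arrays and more genes tested are part of those settings.

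Replicate numbers are shared by the groups. The deviations of same-numbered arrays correlated at -0.44 to 0.34 in the time course (over 0.1 in 12 of 36 pairs of groups). In the repeat set they correlated at -0.05 to 0.04. Both signs occurred, so the arrays were not treated as pairs. What the time course arrays share across groups was not tested. With a replicate block, the count between the knockdowns at 4 h was 1, and no other count of calls moved by over 1.5 times.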
